A study of Mus musculus with 8 samples.

Results

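Expression of the beta-galactosidase gene family was followed in the retina of mice labelled WT (3 libraries) or Kv8.2 KO (5 libraries). The family is 4 genes, Glb1l3, Glb1l2, Glb1l and Glb1, of 26824 in the table of estimated counts, and they were taken by symbol. The family was selected on the levels of Glb1l3 in these libraries, which were near 0 in KO, so the values of Glb1l3 are a description and carry no test. The other members were taken as relatives by name, and their values come from the same contrast. Kv8.2 is the voltage-gated potassium channel subunit of photoreceptors that Kcnv2 encodes. All mice were aged 1 month and untreated, and each library came from 2 pooled retinas. The labels give the genotypes only as WT and Kv8.2 KO. The strain, the kind of knockout allele and the sex were not given in the sources used here. The authors tested 3 WT against 3 KO samples without naming the KO samples they left out, so all 8 libraries were used.

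Beta-galactosidases of this family remove terminal beta-linked galactose from sugar chains. Glb1 encodes the acid beta-galactosidase of lysosomes, which degrades GM1 ganglioside and keratan sulfate and works in a complex with the protective protein cathepsin A and the sialidase Neu1. Its loss causes GM1 gangliosidosis, a storage disease of neurons, retinal ganglion cells included. Glb1l, Glb1l2 and Glb1l3 encode related proteins whose substrates are little known.

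By the GENCODE M21 annotation (GRCm38), Glb1l3 and Glb1l2 lie next to each other on the minus strand of chromosome 9. Glb1l3 (ENSMUSG00000031966) spans chr9:26817953-26860890 and Glb1l2 (ENSMUSG00000036395) spans chr9:26763044-26806468. The end of Glb1l3 is followed after 11.48 kb by the start of Glb1l2. Glb1 (ENSMUSG00000045594) lies elsewhere on the chromosome, at chr9:114401076-114474898 on the plus strand. Glb1l (ENSMUSG00000026200) is on chromosome 1, at chr1:75198236-75210813 on the minus strand. The coding sequences, compared in the transcript with the longest one, had 1938 bases in Glb1l, 1941 in Glb1, 1956 in Glb1l2 and 1986 in Glb1l3. Glb1l3 and Glb1l2 were the most alike pair, with 64.0% identical bases where they align, against 58.4% to 62.2% for the other pairs. Their most alike stretch of 60 coding bases is shown because it bears on whether counts could pass between the neighbours. The stretch starts at coding base 423 of Glb1l3 and 426 of Glb1l2, and capitals mark the 52 identical bases.
Glb1l3: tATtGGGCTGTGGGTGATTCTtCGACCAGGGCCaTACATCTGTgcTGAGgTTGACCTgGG
Glb1l2: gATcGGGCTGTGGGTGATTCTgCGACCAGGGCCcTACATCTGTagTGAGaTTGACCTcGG
The longest run of identical bases over the whole coding alignment of this pair was 19. None of the 2611 words of 31 bases in the transcripts of Glb1l3 occurs in a transcript of another gene, on either strand. The share of such words found in other genes was 2.20% for Glb1l2, 5.13% for Glb1 and 8.66% for Glb1l. For Glb1 they include words of Tmppe, with which it shares 165 exon bases on the same strand. For Glb1l they include words of Ankzf1 on the opposite strand, with 505 exon bases shared, and whether counting used strand is not stated.

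The RefSeq promoter table (GRCm38.p6) has entries for Glb1l3, Glb1l and Glb1. The promoters of Glb1l3 and Glb1, from 250 bases before to 50 bases after the start site, are shown because these genes had the lowest and the highest fold change of the family. That of Glb1l3 is chr9:26860774-26861073 on the minus strand, and that of Glb1 is chr9:114400828-114401127 on the plus strand.
Glb1l3: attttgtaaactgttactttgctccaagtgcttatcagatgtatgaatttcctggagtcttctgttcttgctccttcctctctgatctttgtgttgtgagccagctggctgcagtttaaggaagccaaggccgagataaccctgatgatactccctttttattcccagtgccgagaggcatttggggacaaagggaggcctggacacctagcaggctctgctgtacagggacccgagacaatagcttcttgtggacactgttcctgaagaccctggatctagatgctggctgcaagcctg
Glb1: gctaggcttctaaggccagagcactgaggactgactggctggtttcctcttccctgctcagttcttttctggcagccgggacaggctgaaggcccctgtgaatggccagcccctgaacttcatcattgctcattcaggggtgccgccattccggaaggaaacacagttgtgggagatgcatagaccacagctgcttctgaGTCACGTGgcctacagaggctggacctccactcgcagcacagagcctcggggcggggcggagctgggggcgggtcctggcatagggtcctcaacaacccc
The capitals mark the letters GTCACGTG in the promoter of Glb1, the core of the CLEAR element known from promoters of lysosomal genes. It contains CACGTG. GTCACGTG was found on either strand in 2.33% of the 27025 promoters of this length, and CACGTG in 7.24%. The letters TAATCC, the core of sites of the photoreceptor factor Crx, are in 7.16% of these promoters, searched on both strands. Neither these nor GTCACGTG are in the window of Glb1l3 or of Glb1l. A match in letters is not a measured binding site. The promoter of Glb1l3 held 3 CG pairs, that of Glb1 held 9 and that of Glb1l held 26.

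The libraries held 17759146 to 25188870 counts each. Levels are given as CPM, the counts per 1e+06 after TMM scaling (trimmed mean of M values), and the floor of 3 counts is 0.130 to 0.164 CPM. Kcnv2 itself was present in every library, with a WT mean of 532 ± 16.4 CPM (SD, n = 3) and a KO mean of 449.7 ± 77.8 CPM (SD, n = 5). KO 2, at 584.9 CPM, lay above every WT library (519.3 to 550.6 CPM), and KO 3 to KO 6 lay below, at 398.4 to 447.3 CPM. The gene-level count thus does not identify the knockouts, and KO means here the library labelled so. KO 4, KO 5 and KO 6 stood apart, with 3.03% to 3.70% of counts from mitochondrial genes against 5.23% to 7.92% in the other libraries. KO 3 held 8546 CPM of lens markers summed, against at most 458.7 CPM elsewhere. WT 3 was the one library with Y-linked transcripts, with 2132 counts of Ddx3y against 1 to 3 in each other library. Xist, a transcript of female cells, had 9 counts in WT 3 and 30144 to 59443 in each other library. Every KO library thus had the female pattern. Results are therefore given also for KO 2 and KO 3 alone and without single libraries. The tissue label matched its markers, with 37197 to 54879 CPM summed over 8 rod genes in a library. In whole retina, fewer cells of a type and less RNA per cell cannot be told apart.

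Glb1l3 was the member whose levels differed most between the groups as a ratio. It had 144, 195 and 178 counts in WT 1, WT 2 and WT 3. In KO it had 5 (KO 2), 8 (KO 3), 4 (KO 4), 9 (KO 5) and 11 (KO 6) counts. On the CPM scale these are 7.89, 9.17 and 7.90 in WT and 0.217, 0.380, 0.197, 0.460 and 0.501 in KO. All 5 KO libraries were above the floor of 3 counts, so a low level of transcript was still counted in each, and the highest KO library was far below the lowest WT library. WT averaged 8.32 ± 0.733 CPM and KO 0.351 ± 0.139 CPM (SD, n = 3 and 5), so that KO retained 4.22% of the WT mean, from 2.37% in KO 4 to 6.02% in KO 6. The fitted log2 fold change was -4.55 (SE 0.26). With parts of the KO group it was -4.79 (SE 0.30) for KO 2 and KO 3 against WT and -4.39 (SE 0.26) for KO 4 to KO 6 against WT, 2 comparisons that share the WT libraries. Among the 20167 tested genes only 3 had a lower fold change. Glb1l3 was nearly absent in the KO libraries of both kinds, those with a low mitochondrial share and those without. Without KO 3, the library with lens transcripts, its log2 fold change was -4.57, and without WT 3 it was -4.58.

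**Figure D1:**
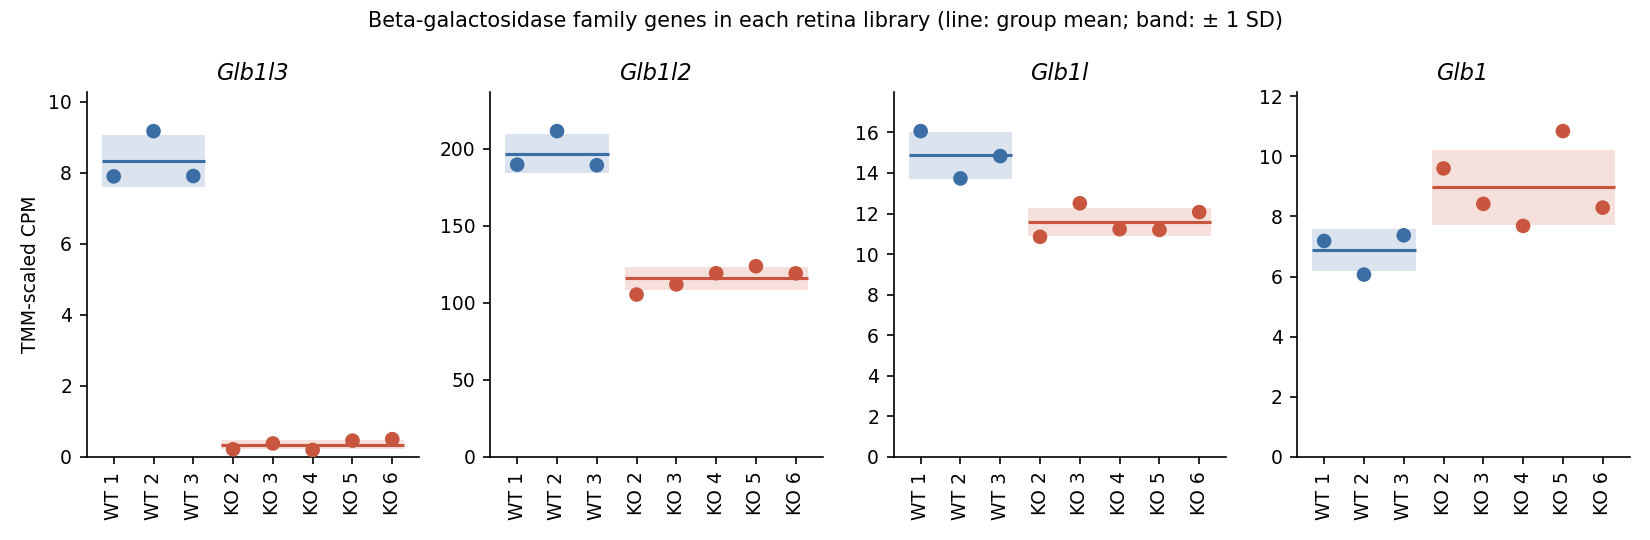
Level of each family gene in each library, in TMM-scaled CPM on axes that start at 0 and differ between the panels, with blue points for WT and red points for KO. Lines are group means and bands 1 SD (n = 3 WT, n = 5 KO). Glb1l3 lies at 7.89 to 9.17 CPM in WT and at 0.197 to 0.501 CPM in KO, and no gene of the family has overlapping groups.

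Glb1l2, the neighbour of Glb1l3 and the most abundant member, was also lower in KO. Its levels were 190, 211 and 189 CPM in WT 1, WT 2 and WT 3. They were 105, 112, 119, 124 and 119 CPM in KO 2 to KO 6. The KO libraries lay close together, between 53.6% and 62.9% of the WT mean, and none reached the lowest WT library. WT averaged 197 ± 12.7 CPM and KO 116 ± 7.24 CPM (SD, n = 3 and 5). The fitted log2 fold change was -0.76 (SE 0.09) with an adjusted p-value of 0.00193 in edgeR's quasi-likelihood test, Benjamini-Hochberg over all 20167 genes, where 2.84% of genes were called lower. Over all genes 956 were called higher and 573 lower, a balance that turned to 566 higher and 787 lower with scaling by library size alone. It is thus a fall to 58.9% of the WT mean, far milder than that of Glb1l3. For KO 2 and KO 3 against WT, where 0.891% of genes were called (0.624% higher and 0.267% lower), it reached -0.86 (SE 0.10), also called by edgeR (adjusted p-value 0.0144). The call held in all 8 fits without 1 library and in all 10 without 2 KO libraries (edgeR adjusted p-values 4.43e-06 to 0.0231). With WT 2, WT 3, KO 2 and KO 3 alone the value was -0.88, and the edgeR adjusted p-value was 0.112 with no block and 0.0803 with the replicate number as a block.

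Glb1l, the member on chromosome 1, was slightly lower. It had 16.1, 13.7 and 14.8 CPM in WT and 10.9, 12.5, 11.2, 11.2 and 12.1 CPM in KO 2 to KO 6. The highest KO library, KO 3, was below the lowest WT library, WT 2, by a small margin. WT averaged 14.9 ± 1.17 CPM and KO 11.6 ± 0.689 CPM (SD, n = 3 and 5). The fitted log2 fold change was -0.36 (SE 0.11), with 2 SE reaching from -0.58 to -0.14, and it did not pass the threshold (edgeR adjusted p-value 0.0686). It was called by DESeq2 (adjusted p-value 0.0322), which called 3127 of all genes, and without KO 3 (edgeR, 0.0353), where 3992 were called. It was also called without KO 2 and KO 3 (edgeR, 0.0161), where 42.8% of all genes were called (22.3% higher and 20.5% lower). These were the only 2 of the 18 fits without 1 library or 2 KO libraries that called it (highest edgeR adjusted p-value 0.281). For KO 2 and KO 3 against WT it was -0.35 (SE 0.14, edgeR adjusted p-value 0.232).

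Glb1, the lysosomal enzyme itself, was the member with higher levels in KO. It had 7.18, 6.07 and 7.37 CPM in WT and 9.59, 8.42, 7.68, 10.8 and 8.29 CPM in KO 2 to KO 6. KO 4, the lowest KO library, stood just above WT 3, the highest WT library. WT averaged 6.87 ± 0.706 CPM and KO 8.96 ± 1.25 CPM (SD, n = 3 and 5). The fitted log2 fold change was 0.38 (SE 0.15), with 2 SE reaching from 0.08 to 0.69, and it was not called (edgeR adjusted p-value 0.137). No fit without 1 or 2 libraries called it (edgeR adjusted p-values 0.0660 to 0.376). A change of Glb1 was therefore not shown at the threshold used.

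Of the 4 members, 3 were lower and 1 was higher in every KO library than in every WT library. Over all tested genes, 20.9% had groups that did not overlap, 10.1% with KO lower and 10.8% with KO higher. The family was picked for 1 of these genes, so nothing is read from the count.

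**Figure D2:**
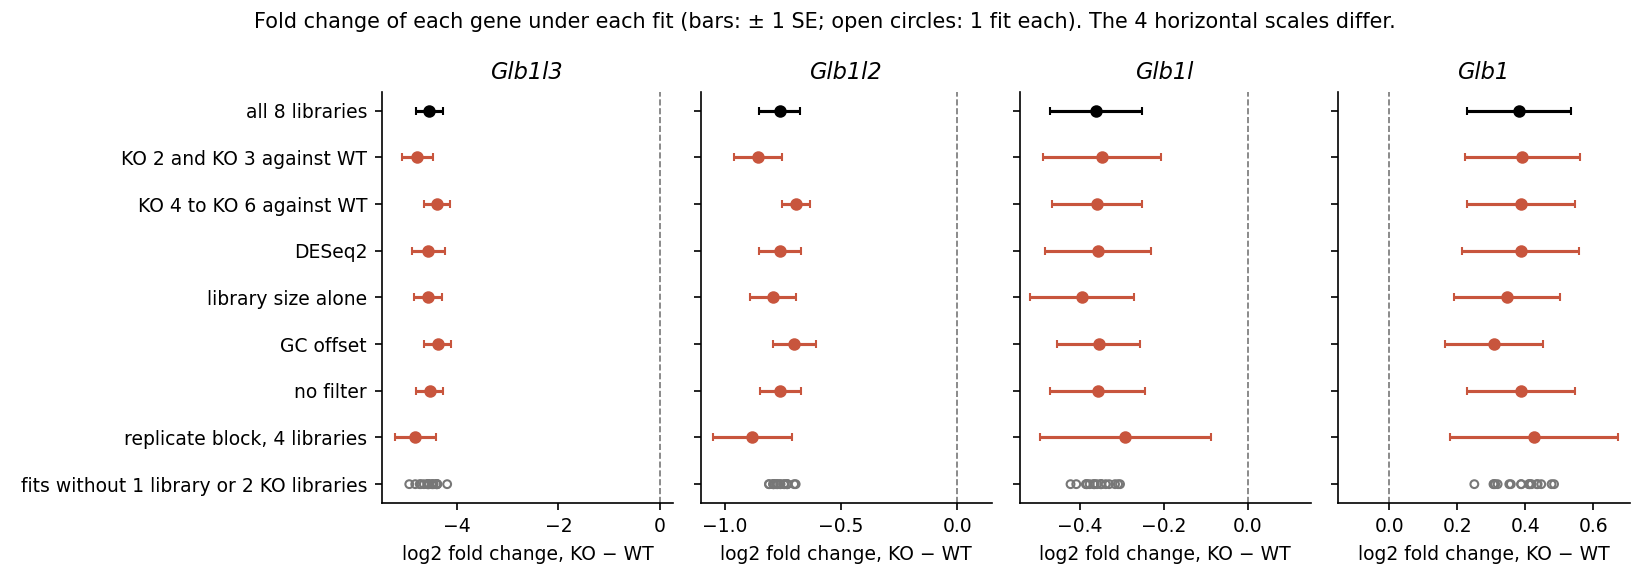
Log2 fold change of KO against WT for each family gene under the fits listed at the left, with bars of 1 SE and open circles for the 18 fits without 1 library or 2 KO libraries. The horizontal scales differ between the panels. Each gene keeps its sign in the fits shown, and those of Glb1l2 run from -0.81 to -0.69 when libraries are left out.

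Levels of different genes were compared per length, as CPM per kb of merged exons. In WT, Glb1l2 was highest with 21.8 ± 1.40 CPM per kb (SD, n = 3). Glb1l3 followed with 3.18 ± 0.280, then Glb1l with 2.52 ± 0.198 and Glb1 with 2.28 ± 0.235. The WT libraries of Glb1l (2.33 to 2.72 CPM per kb) and Glb1 (2.02 to 2.45 CPM per kb) overlapped, so by this length these neighbours in the order did not differ beyond their spread. In KO (SD, n = 5), Glb1l2 was again first with 12.8 ± 0.801 CPM per kb, followed by Glb1 with 2.98 ± 0.417, Glb1l with 1.96 ± 0.117 and Glb1l3 with 0.134 ± 0.0530. By this length Glb1l3 was thus in the second place in WT and the last in KO. Its share of the family's summed level per length was 10.7% ± 0.471 in WT and 0.743% ± 0.271 in KO (SD, n = 3 and 5). By the longest protein-coding transcript that share was 5.00% ± 0.208 and 0.342% ± 0.125. The merged exons of Glb1l2 and Glb1l, 9.043 and 5.905 kb, are much longer than the longest protein-coding transcript, 3.701 and 2.339 kb. Per kb of the longest protein-coding transcript, Glb1l stood above Glb1l3 in WT, with 6.36 ± 0.499 against 3.29 ± 0.290 CPM per kb (SD, n = 3). Glb1 was then the lowest in WT, with 2.87 ± 0.294 CPM per kb, and did not overlap with Glb1l. Also in KO, Glb1l stood above Glb1 by this length, with 4.95 ± 0.295 and 3.74 ± 0.523 CPM per kb (SD, n = 5). By merged exons their order in KO was the reverse. Glb1l3 was the last of the family in KO by either length.

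The genes next to the family were examined to see how far the lower levels reached along the chromosome. Only genes with a position in GENCODE M21 could be placed. Around Glb1l3 and Glb1l2, 10 other such genes are the nearest 5 on a side of one of them or the other. Of these, 8 were tested. None of the 8 was called lower, and their median log2 fold change was 0.02, against 0.00 over all tested genes. B3gat1, which makes the HNK-1 carbohydrate and overlaps the end of Glb1l2 by 58 bases on the opposite strand, was at 71.1 CPM in WT and 78.1 CPM in KO (log2 fold change 0.14, SE 0.10, edgeR adjusted p-value 0.401). Acad8, a mitochondrial dehydrogenase of valine breakdown on the other side, was at 42.9 and 39.5 CPM (log2 fold change -0.12, SE 0.08, edgeR adjusted p-value 0.346). Thyn1 lay at 28.1 to 33.2 CPM in WT and 22.5 to 26.0 CPM in KO, without overlap but not called (log2 fold change -0.27, SE 0.10, edgeR adjusted p-value 0.104). It was called lower for KO 4 to KO 6 against WT, where 20.5% of all genes were (log2 fold change -0.31, SE 0.08, edgeR adjusted p-value 0.0110). Eepd1, a DNA repair nuclease at the far end of the set, was called higher (log2 fold change 0.53, SE 0.10, edgeR adjusted p-value 0.0177), and was not called for KO 2 and KO 3 against WT (edgeR adjusted p-value 0.0941). Glb1l3 was set aside as the gene chosen for its low KO levels. Of the other tested genes placed here, Glb1l2 was thus the only one called lower by edgeR over all 8 libraries.

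Glb1l shares its start region with Stk16, a kinase gene on the opposite strand whose annotated start is 0.025 kb away. Stk16 was at 41.0 CPM in WT and 36.6 CPM in KO, with KO 2 alone at 26.3 CPM (log2 fold change -0.16, SE 0.14, edgeR adjusted p-value 0.463). Of the 9 tested neighbours of Glb1l, 3 were called higher. The largest was Ptprn, a membrane protein of secretory granules, at 69.0 to 80.9 CPM in WT and 146 to 221 CPM in KO (log2 fold change 1.28, SE 0.14, edgeR adjusted p-value 0.00139). Glb1 starts 0.029 kb before Tmppe, a phosphoesterase gene on the same strand that shares exon bases with it. Tmppe was called higher, with 2.40 to 3.91 CPM in WT and 3.61 to 8.06 CPM in KO (log2 fold change 1.01, SE 0.26, edgeR adjusted p-value 0.0462), but KO 3 at 3.61 CPM was below WT 3 at 3.91 CPM. It was not called for KO 2 and KO 3 against WT (edgeR adjusted p-value 0.265). Around all 4 members, 5 of 26 tested neighbours were called, all higher, where 7.58% of all genes were called and 4.74% were called higher. That count ranged from 1 to 7 in the fits without 1 library and was 1 without KO 5, WT 1, WT 2 or WT 3 and 2 without KO 4 or KO 6. Over all genes, 3992 were called in the fit with 7 neighbours, and 132 to 388 in those with 1.

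**Figure D3:**
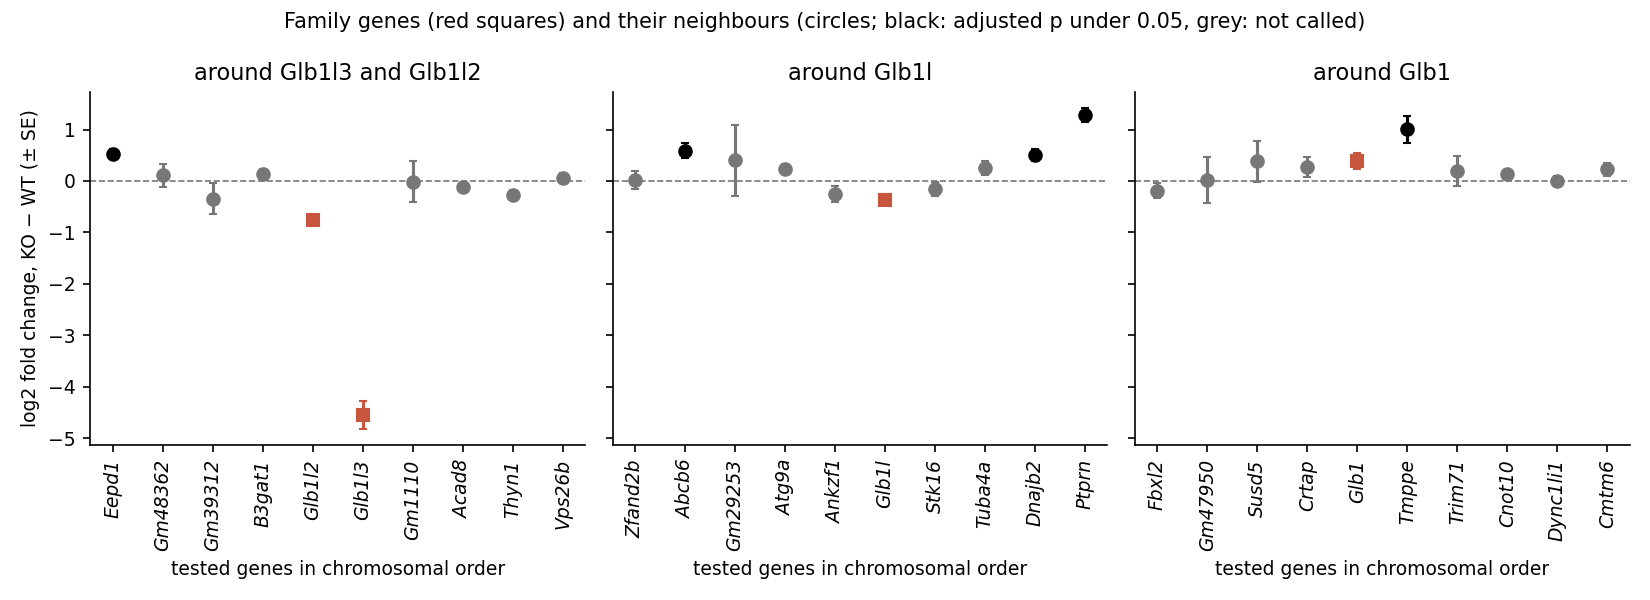
Log2 fold change (KO minus WT, with bars of 1 SE) of family genes, as red squares, and of their tested neighbours, as circles, in chromosomal order around Glb1l3 and Glb1l2, around Glb1l and around Glb1. Black circles passed the edgeR test and grey ones did not. Beside Glb1l2 at -0.76 and Glb1l3 at -4.55, the neighbours in the first panel lie between -0.35 and 0.53.

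Partners and fellow enzymes of Glb1 were followed in 4 lists. Over all tested genes 4.74% were called higher and 2.84% lower, 50.1% of log2 fold changes were above 0 and the median was 0.00. Of 16 tested enzymes that degrade sphingolipids or keratan sulfate, the pathways of Glb1, 1 was called higher and none lower, and 14 of 16 log2 fold changes were above 0 (median 0.25). A count of 1 in 16 is near the share over all genes. The complex partners Ctsa and Neu1 were not called, with log2 fold changes of 0.24 (SE 0.12) and 0.13 (SE 0.14). Nor was Hexa, of the next step in ganglioside breakdown, with 0.18 (SE 0.09). Psap, the precursor of the saposins, had no overlap between groups and missed the threshold (log2 fold change 0.43, SE 0.14, edgeR adjusted p-value 0.0785).

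Among 13 other lysosomal glycosidases, 5 rose and none fell (median log2 fold change 0.36), beside 4.74% and 2.84% of all genes. With library size alone 3 were called higher and 1 lower, beside 566 and 787 of all genes. DESeq2 called 5 higher and 1 lower, beside 1960 and 1167 of all genes. The 5 called higher by edgeR over all libraries included the mannosidases Man2b2 (0.95, SE 0.15) and Man2b1 (0.70, SE 0.11). The others were the glycogen glucosidase Gaa (0.69, SE 0.16), Naglu (0.66, SE 0.13), of heparan sulfate breakdown, and the fucosidase Fuca1 (0.43, SE 0.12). Over these 5 genes, edgeR adjusted p-values ran from 0.00879 for Man2b1 to 0.0499 for Fuca1. Man2b1 had 25.6 CPM in WT and 41.7 CPM in KO, and Man2b2 had 12.6 and 24.4 CPM. Ctbs, a chitobiase, was lower in every KO library but not called (log2 fold change -0.48, SE 0.14, edgeR adjusted p-value 0.0669).

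Of the 14 ganglioside synthesis enzymes, 2 rose, St3gal1 (0.59, SE 0.12, edgeR adjusted p-value 0.0248) and B4galt5 (0.59, SE 0.16, 0.0494), and none fell (median log2 fold change 0.16), again beside 4.74% of all genes called higher. Both are transferases that add sugars to growing chains, St3gal1 a sialic acid and B4galt5 the galactose of lactosylceramide. B4galt5 was at 17.9 CPM in KO 3, below WT 3 at 18.8 CPM. Of 18 genes of lysosome structure and sorting, 2 rose and none fell (median 0.15), a count that was 0 with library size alone and stands beside the same 4.74%: the protease Ctsb (0.52, SE 0.13, edgeR adjusted p-value 0.0391) and Tfe3 (0.51, SE 0.11, 0.0254), a transcription factor of lysosomal genes. Its relative Tfeb was not called (0.29, SE 0.15, edgeR adjusted p-value 0.240), and the membrane protein Lamp1 had -0.05 (SE 0.10).

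None of the genes of these 4 lists was called by edgeR for KO 2 and KO 3 against WT, which is near the 0.891% of all genes called there. In that comparison the medians were 0.18, 0.34, 0.14 and 0.13 in the order given. The count of called genes ranged from 0 to 4, 0 to 6, 0 to 4 and 0 to 5 in the fits without 1 library. It was 0 in each list without WT 1 and without WT 2. Without WT 3 it was 1 among the other glycosidases and 0 in the rest of the lists. Without KO 4, KO 5 or KO 6 it was 2 among the other glycosidases and 0 or 1 elsewhere, and without KO 2 it was 1 in ganglioside synthesis. Without KO 3 it was 4, 6, 4 and 5, of which 1 of the glycosidases was lower. Over all genes, 3992 were called without KO 3, 2781 without KO 2, 132 to 199 without a WT library and 365 to 531 without KO 4, KO 5 or KO 6. Beside these lists, markers of microglia, cells rich in lysosomes, summed to 31.1 to 35.3 CPM in WT and 39.3 to 54.9 CPM in KO, with 2 of 8 called higher and none at 0 in a library. Endothelial markers summed to 143 to 149 CPM in WT and 193 to 291 CPM in KO (1 of 5 called higher). Most of this sum was Kdr, the gene called, at 112 to 118 CPM in WT and 163 to 251 CPM in KO. Each of the other endothelial markers overlapped between the groups. Muller glia markers summed to 4494 to 4680 CPM in WT and 4760 to 6859 CPM in KO (2 of 8 called higher). Cone markers summed to 871 to 1077 CPM in WT and 628 to 841 CPM in KO, with 2 of 6 called lower and 1 higher. The groups overlapped in the sums of rod, pigment epithelium and lens markers, with 1 of 8 rod genes called higher and none called of the 11 tested in each of the other lists. The part of these cell types in the results was not tested.

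**Figure D4:**
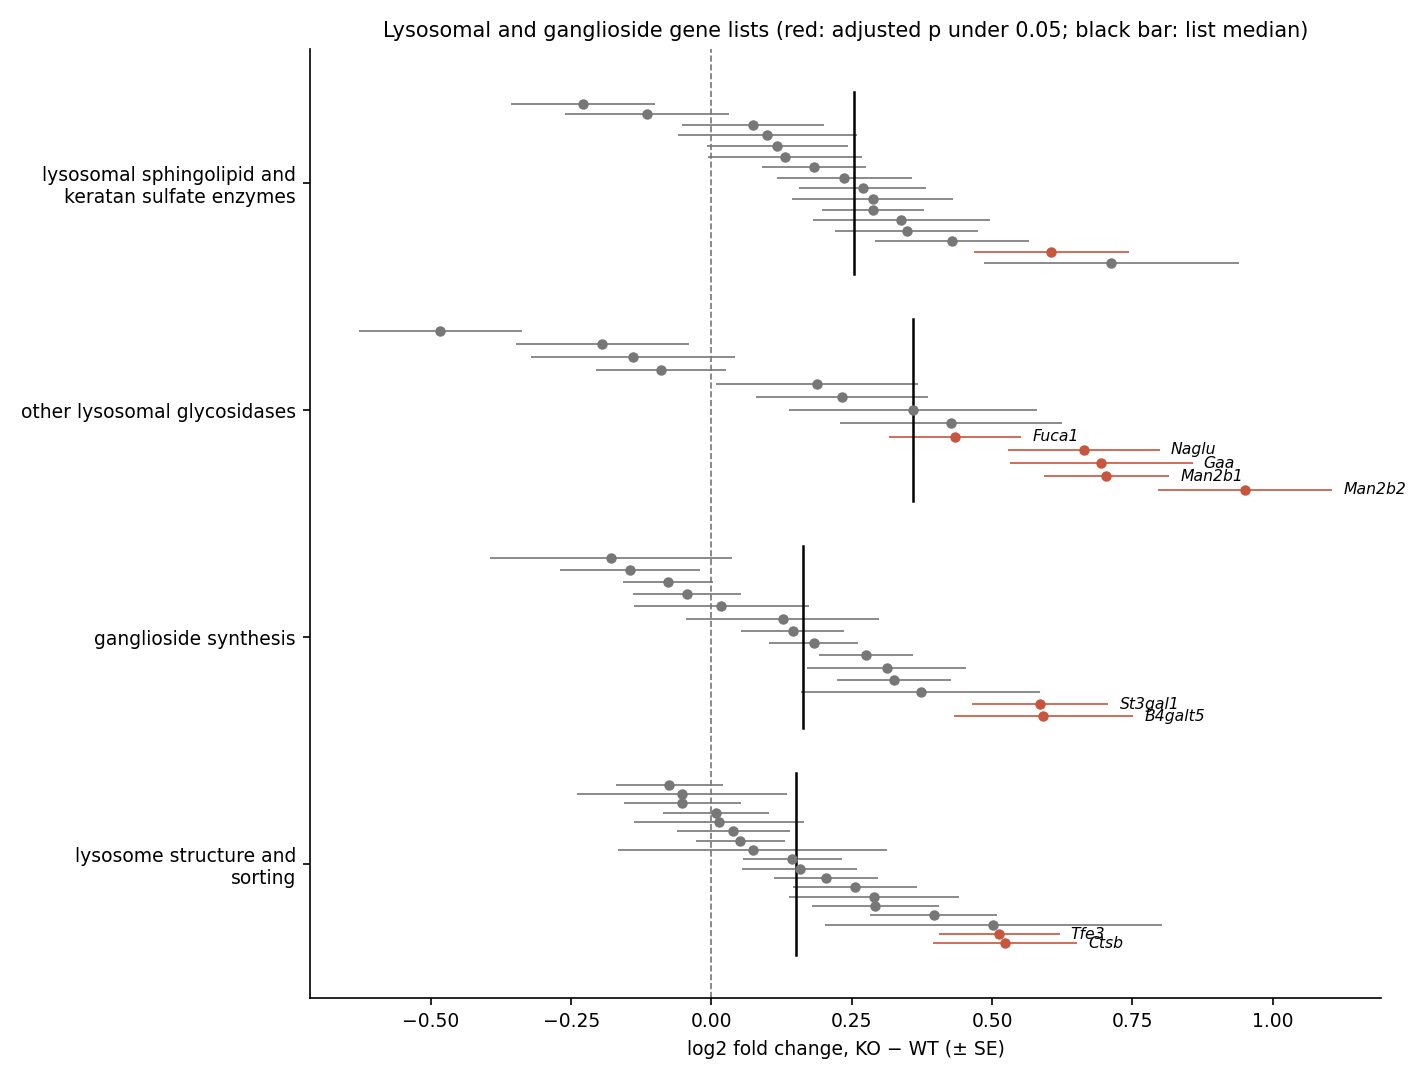
Log2 fold change (KO minus WT, with bars of 1 SE) of each tested gene of the 4 lists, with genes that passed the edgeR test in red, named where the text describes them, and the list median as a black bar. All 10 red genes lie to the right of 0.

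The genes whose levels followed Glb1l3 most closely over the 8 libraries were found by Pearson's r of log2 CPM among 14697 tested genes of at least moderate level. Such a ranking mainly finds genes that separate the groups, so it is a description with no test. Of the first 5 genes, 4 are described. BC065403 (r = 0.986) had 13.4 to 14.3 CPM in WT and 5.08 to 6.61 CPM in KO. Glb1l2 followed (r = 0.982), then Ndufaf5, an assembly factor of respiratory complex I (r = 0.982), and Fam229b (r = 0.979). Ndufaf5 had 23.8 to 25.02 CPM in WT and 14.9 to 18.1 CPM in KO, and Fam229b 13.5 to 14.9 and 6.12 to 7.61 CPM. The log2 fold changes of these 4 genes were between -1.21 and -0.55, and so none had a decrease near that of Glb1l3. BC065403 is on chromosome 9, Ndufaf5 on 2 and Fam229b on 10. Within the 5 KO libraries alone, where Glb1l3 had 4 to 11 counts, r was 0.50 with Glb1l2 and 0.58 with Glb1l, which lies on another chromosome.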

How the data were processed

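RNA sequencing of mouse retina gave 1 library per sample, 3 labelled WT and 5 labelled KO. The authors deposited a table of estimated counts per gene as whole numbers, not scaled between libraries. Per the submitters' processing notes the tools were Trim Galore, Salmon 1.10.2 and DESeq2, with the build GRCm38. Annotation release, strand setting and rounding were not given in the sources used here. Salmon shares reads that fit several transcripts, which can move counts between overlapping genes. The lowest total of a gene over the libraries is 16 counts. Groups were taken from the sample titles.

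edgeR 4.0.16 (R 4.3.3) was run with TMM scaling, filterByExpr, glmQLFit and glmQLFTest, without covariates, on 20167 genes, and Benjamini-Hochberg adjustment over these used a threshold of 0.05. SE was derived from the fold change and F. Correlations used log2 CPM with a prior count of 2, for genes of a mean of at least 1. Positions, lengths, GC content and 31-base words came from GENCODE M21, which held 22121 of the 26824 genes. Alignments used Biopython 1.88. As a check of the code, the fits were also run on simulated counts. These held no split within the KO libraries.

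The genes named are the 4 members, Kcnv2, up to 6 called genes with the smallest p-values per list, the 5 nearest genes of the table on each side of a member, and the 5 genes most correlated with Glb1l3. Other genes are named as examples of a list, after their values were seen. Members and lists were chosen with earlier results of these data known. Of the listed symbols, 2 were not matched. Some genes that these rules name are not reported here. No source says that libraries of a group came from separate litters or days, so p-values measure the spread between these samples. No pair of libraries of a group agreed within sampling noise (chi-square per degree of freedom of 5.85 or more). Alternatives were DESeq2 1.42.0, other scalings and filters, an offset for GC content (a spline with 5 degrees of freedom per library), fits without libraries, and the replicate number as a block. The labels do not say that the numbers 2 and 3, which both groups have, pair the samples. Floors cover counting error only.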

Additional observations from a re-analysis of the deposited data

Results flagged for a closer look

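The gap between the lowest or highest of the 5 KO libraries and the nearest other, as a share of their range, was examined for 41 values and passed the limit of 0.71 in 3, where chance gives about 2.05. None of the 4 family genes was among them. The summed lens markers were far higher in KO 3 than in the other KO libraries, with a gap of 0.993 of the range. Abcb6, a neighbour of Glb1l, was lowest in KO 3 at 18.5 CPM, with a gap of 0.828. Stk16, which shares its start region with Glb1l, was lowest in KO 2 at 26.3 CPM, with a gap of 0.729.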

How the results depend on the processing

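The family genes kept their direction in each alternative that gave them a value, which leaves out the crossed pairing. Without 1 library or 2 KO libraries, the log2 fold change ran from -4.95 to -4.20 for Glb1l3 (-4.945 to -4.198), from -0.81 to -0.69 for Glb1l2, from -0.42 to -0.30 for Glb1l and from 0.25 to 0.48 for Glb1. Glb1l was called by DESeq2 (-0.36). Glb1l2 lost its call in the 4 libraries WT 2, WT 3, KO 2 and KO 3, at -0.88 with the replicate block and -0.88 with no block. The numbers of all genes called were 3127 by DESeq2, 1002 with the GC offset, 180 without KO 4 to KO 6, 52 with the replicate block, 14 with no block in the same libraries, 527 with the crossed pairing (added after seeing the data), and 118 to 8416 without 1 library or 2 KO libraries. WT 2 and KO 2 had a correlation of -0.0044 in their deviations, and WT 3 and KO 3 one of -0.24. The KO libraries differed unevenly, with a chi-square per degree of freedom of 110 for KO 2 and KO 3. It was 5.85 for KO 4 and KO 5. Such differences enter the deviations too, so these correlations cannot decide whether the numbers pair the samples.

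Without 1 library or 2 KO libraries, calls ranged from 0 to 10 for enzymes of sphingolipids and keratan sulfate, 0 to 9 for other glycosidases, 0 to 8 for ganglioside synthesis, 0 to 13 for lysosome structure and sorting, and 1 to 10 for neighbours. With the GC offset they were 3 for other glycosidases, 1 for ganglioside synthesis, 1 for lysosome structure and 3 for neighbours. With library size alone, which called 1353 genes (566 higher and 787 lower), they were 4 for other glycosidases (3 higher and 1 lower), 1 for ganglioside synthesis, 0 for lysosome structure and 2 for neighbours. DESeq2 called 4 of the sphingolipid and keratan sulfate enzymes and 4 of ganglioside synthesis, where no filter left 1. Without KO 4 to KO 6, all 4 lists had 0 and the neighbours 1. The same held under the replicate block, and with no block in those 4 libraries the neighbours had 0. Per kb of the longest protein-coding transcript, WT levels were 53.2 for Glb1l2, 6.36 for Glb1l and 2.87 for Glb1. The causes of these differences were not tested, except that fewer libraries enter some fits. At 4 to 11 counts in a KO library, the size of the Glb1l3 difference is limited by counting.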
